A study of Mus musculus with 6 samples.

Results

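NF-kB is a family of transcription factors built from the products of 5 genes. The data are transcript levels of those 5 genes and of 5 grouped as inhibitors, in a mouse B-cell leukemia model and normal pro-B cells. The members are Nfkb1, Nfkb2, Rel, Rela, Relb, Nfkbia, Nfkbib, Nfkbie, Nfkbiz and Tnfaip3, chosen by name. All 10 were found among the 33924 genes of the count table, and all 10 passed the filter on low counts. With edgeR 9.54% of all genes were called higher in leukemia and 10.7% lower. Of the subunit genes, Nfkb2, Rel, Rela and Relb were called higher, while Nfkb1 did not pass. All 4 calls were lost in the fit without leukemia 1 replicate 1. They were also lost without either pro-B library, but those fits leave a single pro-B library and the loss in them was not particular to these genes. Of the 5 genes grouped as inhibitors, which include the nuclear cofactor gene Nfkbiz, edgeR called 0 between leukemia and pro-B cells. At an unadjusted p under 0.05, 0 were lower and 1 was higher, Nfkbib. DESeq2 called Nfkbib higher and Tnfaip3 lower, with 15.3% and 15.9% of all genes. Nfkbia was called lower in leukemia 92 than in leukemia 1, beside 1.27% of all genes. That call was lost without either leukemia 92 library and without either pro-B library. The log2 change of Nfkbia in these fits was -1.22 to -1.16. They leave a single library in a group, and the loss in them was not particular to Nfkbia.

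In resting cells NF-kB dimers are held in the cytoplasm by IkB proteins. A signal from a receptor activates the IKK kinase complex, which marks IkB for destruction, and the freed dimer enters the nucleus and drives its target genes. Nfkb1 and Nfkb2 encode the precursors p105 and p100, which are processed to p50 and p52. Rela (p65), Relb and Rel (c-Rel) carry the transactivation domains. Nfkbia, Nfkbib and Nfkbie encode the cytoplasmic inhibitors IkB alpha, beta and epsilon, Nfkbiz encodes the nuclear IkB zeta, and Tnfaip3 encodes A20, a ubiquitin-editing enzyme that shuts the pathway off upstream. Several of these genes are themselves NF-kB targets, IkB alpha and A20 being the textbook feedback inhibitors. In B-lineage cells c-Rel and RelA support survival and activation, and the RelB and p52 pair carries the non-canonical arm.

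RNA was sequenced in 6 libraries, 2 in each of 3 groups. Leukemia 1 and leukemia 92 are primary bone marrow leukemias of genotype Mll-Af4 with N-RasG12D. Stem and progenitor cells (c-Kit+ Sca1+, lineage-depleted) of Mll-Af4 mice aged 6 to 8 weeks received 1 retrovirus carrying Cre and TdTomato and another carrying N-RasG12D, expressed from the viral vector, and were injected with wild-type helper marrow into lethally irradiated recipients. How the leukemia cells were purified at harvest is not given, so host and helper cells may be in the samples. The controls were pro-B cells (B220+ CD43+ IgM-) from wild-type marrow, with no age given. The labels do not say whether the 2 replicates of a group are separate animals, so the spread within a group may be technical alone. A p-value between the leukemias rests on that spread. With libraries summed per leukemia, the p-value against pro-B cells rests on the pro-B pair and on the difference between the leukemias.

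Gene counts summed to 22153444 to 27444759 per library. Levels are counts per 1000000 (CPM) of the TMM-scaled library size, and 3 counts in 1 library correspond to 0.111 to 0.140 CPM. The replicates of leukemia 1 stood apart from each other, with an SD of log2 differences over genes of 1.04, against 0.253 in leukemia 92 and 0.249 in pro-B cells. The 15 granulocyte markers (0 called in either direction) summed to 16574 CPM in leukemia 1 replicate 2, to 185 CPM in its replicate 1, to 463 and 817 CPM in leukemia 92 and to 430 and 455 CPM in pro-B cells. The 12 pro-B markers (1 called higher, 2 lower in leukemia) summed to 4239 to 5846 CPM in leukemia and 4513 to 5470 CPM in pro-B cells. Transcripts of the lineage named by the labels were thus present in all 6 libraries, and a sum does not tell which cells carried them. The pro-B sort carried more T and NK cell transcripts (492 to 514 CPM against 7.07 to 49.7 CPM, 6 of 12 markers called lower in leukemia) and dendritic cell transcripts (4707 to 5287 CPM against 1594 to 2239 CPM, 7 of 12 lower and 2 higher). Monocyte and macrophage markers summed to 693 to 3351 CPM in leukemia and 631 to 637 CPM in pro-B cells (5 of 11 called higher), and mature B markers to 1937 to 6863 CPM and 2108 to 2526 CPM (2 of 9 higher). Erythroid and platelet markers (3 of 6 tested called lower) and stromal and endothelial markers (1 of 7 tested higher, 3 lower) summed to at most 109 and 556 CPM in any library. No marker was at 0 in all 4 leukemia libraries. The part of these cells in the results below was not tested, and in such bulk samples fewer cells of a type and less RNA per cell cannot be told apart.

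Promoters are shown for the called subunit genes that have one, Nfkb2, Rel and Rela, and for Nfkbia and Tnfaip3, the textbook feedback inhibitors, because these genes include known targets of NF-kB. RefSeq promoters of build GRCm38.p6 were at hand for 7 of the 10 members (not for Nfkb1, Relb and Nfkbiz), with 10 start sites. The counts themselves were made on mm9, so these coordinates belong to the sequences alone. Each stretch is the 250 bases before a start, 5′ to 3′ on the strand of the gene. Capitals mark bases covered by the kappaB-type motif, GGG followed by 5 bases of any kind and CC, on either strand, overlapping matches included.
Nfkb2, chr19:46304487-46304736, + strand, the most upstream of its 3 starts: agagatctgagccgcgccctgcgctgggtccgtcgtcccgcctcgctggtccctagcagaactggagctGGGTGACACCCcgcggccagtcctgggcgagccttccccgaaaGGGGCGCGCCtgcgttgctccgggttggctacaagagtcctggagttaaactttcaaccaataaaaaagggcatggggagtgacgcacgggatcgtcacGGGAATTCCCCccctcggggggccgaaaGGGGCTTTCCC
Rel, chr11:23770970-23771219, - strand: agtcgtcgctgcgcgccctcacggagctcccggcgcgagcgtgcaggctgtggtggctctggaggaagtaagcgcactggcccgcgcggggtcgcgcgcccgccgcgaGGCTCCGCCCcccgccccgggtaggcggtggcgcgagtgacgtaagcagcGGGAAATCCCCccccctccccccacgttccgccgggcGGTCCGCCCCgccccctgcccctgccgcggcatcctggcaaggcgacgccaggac
Rela, chr19:5637291-5637540, + strand: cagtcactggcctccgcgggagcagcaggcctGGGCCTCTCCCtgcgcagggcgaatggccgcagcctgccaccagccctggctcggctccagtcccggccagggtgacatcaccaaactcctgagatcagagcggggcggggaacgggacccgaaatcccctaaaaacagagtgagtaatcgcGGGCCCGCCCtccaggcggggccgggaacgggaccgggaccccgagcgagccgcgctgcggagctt
Nfkbia, chr12:55492648-55492897, - strand: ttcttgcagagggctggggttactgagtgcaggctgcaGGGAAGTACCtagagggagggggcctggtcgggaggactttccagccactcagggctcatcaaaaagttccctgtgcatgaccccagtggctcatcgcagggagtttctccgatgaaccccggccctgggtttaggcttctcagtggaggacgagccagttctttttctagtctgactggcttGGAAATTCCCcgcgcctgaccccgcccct
Tnfaip3, chr10:19015411-19015660, - strand, the more upstream of its 2 starts: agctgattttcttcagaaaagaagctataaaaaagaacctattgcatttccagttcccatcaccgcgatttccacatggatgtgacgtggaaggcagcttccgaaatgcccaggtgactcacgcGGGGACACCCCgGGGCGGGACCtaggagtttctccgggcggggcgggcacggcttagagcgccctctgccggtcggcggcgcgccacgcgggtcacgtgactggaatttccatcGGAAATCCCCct
Nfkb2 held the motif in 4 separate stretches, among them the palindromic GGGAATTCCC, whose first base lies 39 bases before the start. Rel held GGGAAATCCC, a match on both strands, 92 bases before its start, and 2 further stretches. Rela held the motif in 2 stretches, 218 and 66 bases before its start. Nfkbia held GGAAATTCCC 29 bases before its start and Tnfaip3 GGAAATCCCC 12 bases before its start, each a match on the opposite strand. The motif was found in the windows of 6 of the 7 members, the exception being Nfkbib, and in 9 of their 10 windows. Of all 32851 RefSeq windows 45.8% held it, so the loose motif is common and a match is a description of the letters, not evidence of binding.

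**Figure D1:**
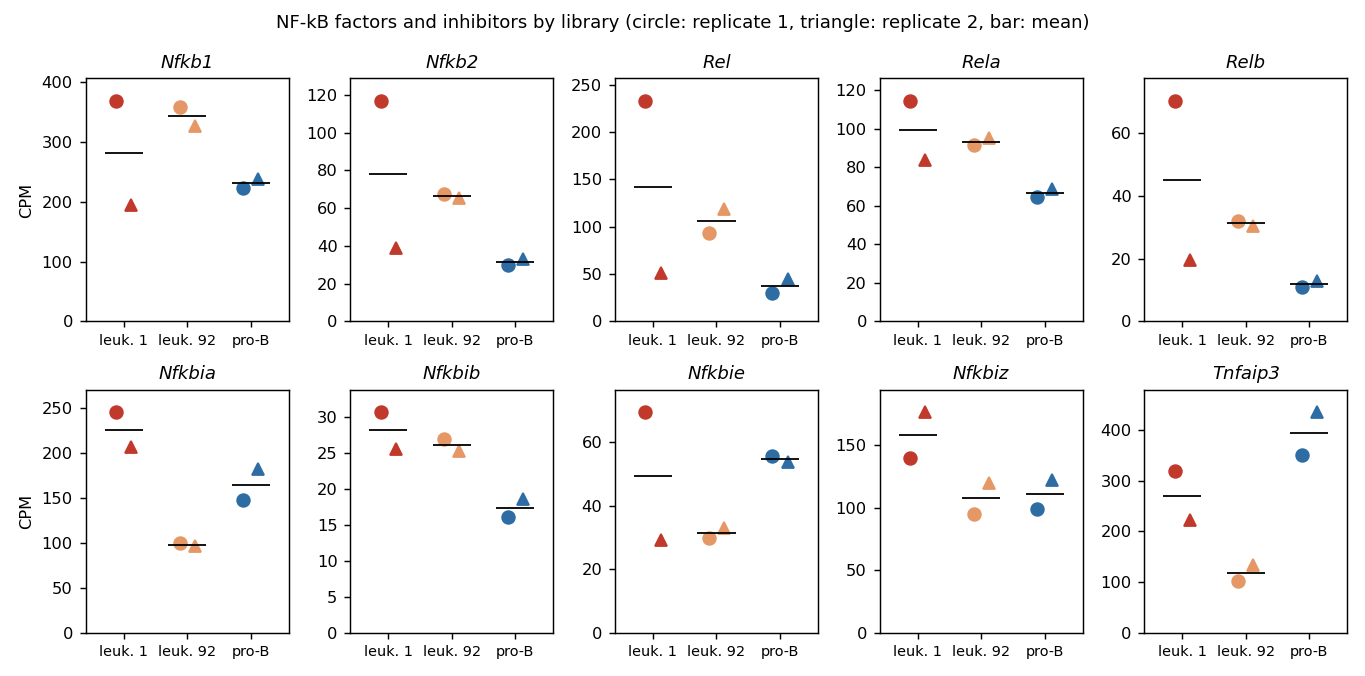
Levels of the 10 members in each of the 6 libraries, in CPM on linear axes from 0, with replicate 1 as circles, replicate 2 as triangles and the mean of each group as a bar. Rel, Nfkb2, Relb, Rela and Nfkbib are higher in all 4 leukemia libraries than in both pro-B libraries, Tnfaip3 is lower in all 4, and leukemia 1 replicate 1 is the highest library for 8 of the 10 genes.

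Leukemia was compared with pro-B cells with the leukemia as the unit: the 2 libraries of each leukemia were summed and 2 leukemias were set against 2 pro-B libraries. The difference between the 2 libraries of a leukemia, which was wide in leukemia 1, therefore does not enter the standard errors of this comparison. A gene was called at an edgeR adjusted p under 0.05. Of the 10 members, 4 were called higher and 0 lower. An unadjusted p under 0.05 was reached by 5 higher and 0 lower members. Of the 15280 genes tested 20.2% were called, 9.54% higher and 10.7% lower. By DESeq2 5 members were higher and 1 was lower, beside 15.3% and 15.9% of all genes. The members had a median log2 change of 0.49, and all genes tested one of 0.02.

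Rel, the c-Rel gene, and Relb had the largest log2 changes of the 5 subunit genes, and these differ from each other by less than their standard errors. Relb was above Rel without leukemia 1 replicate 1 (1.11 against 1.09), without leukemia 92 replicate 2 (1.66 against 1.62) and without pro-B replicate 1 (1.51 against 1.41). Rel stood at 29.9 and 45.2 CPM in the pro-B libraries, 93.7 and 118 CPM in leukemia 92, and 233 and 51.4 CPM in leukemia 1 replicates 1 and 2. All 4 leukemia libraries lay above both pro-B libraries, and the distance between the leukemia 1 replicates was wider than that between leukemia 92 and pro-B cells. The leukemia libraries averaged 124 ± 77.9 CPM (SD, n = 4 libraries of 2 leukemias) against 37.6 ± 10.9 CPM in the controls (SD, n = 2). The log2 change was 1.70 (SE 0.27, edgeR adjusted p = 0.028).

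Relb and Nfkb2, the genes of the non-canonical pair, rose in the same libraries. Relb stood at 11.002 and 12.989 CPM in pro-B cells, 32.1 and 30.4 CPM in leukemia 92, and 70.4 and 19.6 CPM in leukemia 1, with no overlap (log2 change 1.65, SE 0.22, edgeR adjusted p = 0.021). Nfkb2 stood at 29.8 and 32.8 CPM in pro-B cells, 67.5 and 65.4 CPM in leukemia 92, and 117 and 38.7 CPM in leukemia 1, again with no overlap (log2 change 1.19, SE 0.13, edgeR adjusted p = 0.016). In both genes leukemia 1 replicate 2 was the lowest of the leukemia libraries and leukemia 1 replicate 1 the highest. In the GENCODE M21 annotation 12.6% and 7.08% of the exon length of Nfkb2 are shared with genes on the other strand, a long non-coding RNA and Psd, and the strand setting of the counting is not given, so its reads are not assigned with full certainty.

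Rela, the p65 gene, rose by less. Its levels were 64.4 and 68.6 CPM in pro-B cells, 91.5 and 95.1 CPM in leukemia 92, and 115 and 83.9 CPM in leukemia 1, all 4 above both controls (log2 change 0.53, SE 0.11, edgeR adjusted p = 0.045). The adjusted p of Rela was 0.10 with library sizes alone as scaling, a setting under which the median log2 change of all genes moved from 0.02 to -0.14. It was also 0.056 with no filter on low counts, 0.067 without leukemia 1 replicate 2 and 0.051 without leukemia 92 replicate 2.

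Nfkb1, the p105 and p50 gene, was the only subunit gene that did not pass. It stood at 223 and 238 CPM in pro-B cells, 358 and 327 CPM in leukemia 92, and 369 and 195 CPM in leukemia 1. Leukemia 1 replicate 2 lay below both pro-B libraries and the other 3 above them (log2 change 0.44, SE 0.18, edgeR adjusted p = 0.15). Without that library the change was 0.63 with an adjusted p of 0.0496.

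The 4 calls depended on which libraries entered. Without leukemia 1 replicate 1 edgeR called 0 members higher, with 3 at an unadjusted p under 0.05, and the log2 changes were 1.09 for Rel (adjusted p = 0.18), 1.11 for Relb (0.097), 0.77 for Nfkb2 (0.18) and 0.43 for Rela (0.11). Leukemia 1 replicate 2, in which granulocyte markers were high, was left out in turn. The changes were then 2.16 for Rel (edgeR adjusted p = 0.0501), 2.07 for Relb (0.047), 1.54 for Nfkb2 (0.041) and 0.64 for Rela (0.067). The 3 members called higher in that fit were Nfkb1, Nfkb2 and Relb, while Rel and Rela were not called. With leukemia 1 left out altogether a single leukemia sum remained, so sizes alone are given here. The log2 changes in leukemia 92 were 1.51 for Rel, 1.41 for Relb, 1.11 for Nfkb2, 0.60 for Nfkb1, 0.51 for Rela and 0.62 for Nfkbib. They were -1.73 for Tnfaip3, -0.78 for Nfkbie, -0.73 for Nfkbia and -0.03 for Nfkbiz. With either pro-B library left out edgeR called 0 of all genes, with 2645 and 2650 at an unadjusted p under 0.05 (3 members higher in each). With the 6 libraries as units 1 member was called higher, Nfkbib, and 1 lower, Tnfaip3. Rel, Relb and Nfkb2 then had adjusted p values of 0.12, 0.083 and 0.12. That fit takes its spread from the libraries within each group, not from the difference between the leukemias.

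**Figure D2:**
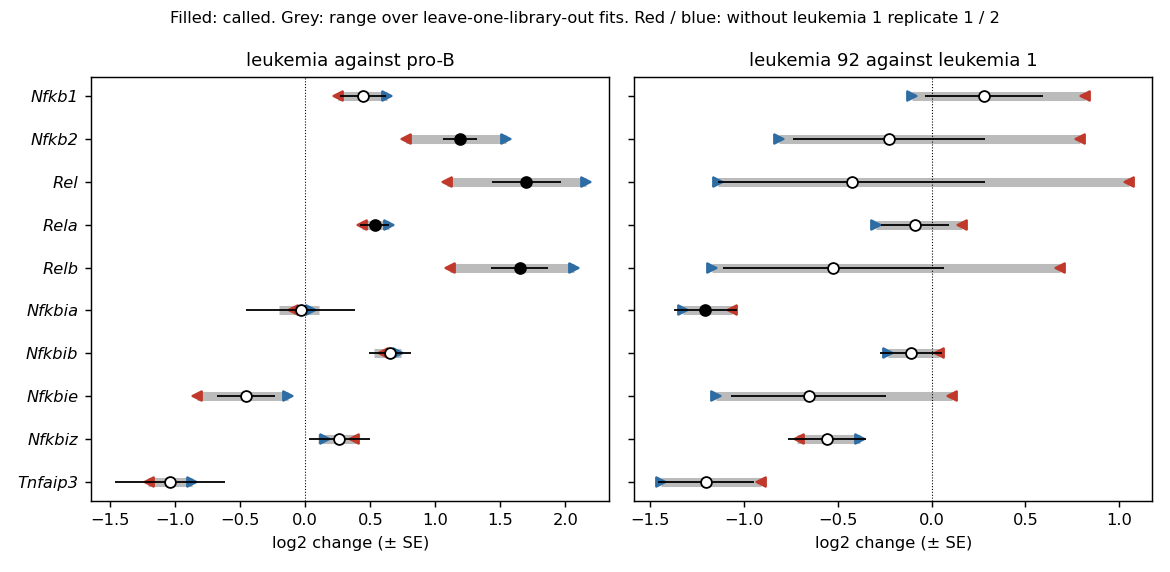
Log2 change of each member with its standard error, for leukemia against pro-B cells (left) and leukemia 92 against leukemia 1 (right), filled where called. Grey bars span the fits that leave out 1 library, red triangles mark the fit without leukemia 1 replicate 1 and blue triangles the fit without its replicate 2; Nfkb2, Rel, Rela and Relb are filled on the left and Nfkbia on the right.

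Among the cytoplasmic inhibitors, Nfkbib alone lay above the controls in all 4 leukemia libraries. The IkB beta gene stood at 16.1 and 18.6 CPM in pro-B cells, 26.9 and 25.2 CPM in leukemia 92, and 30.7 and 25.6 CPM in leukemia 1 (log2 change 0.65, SE 0.16, edgeR adjusted p = 0.063). DESeq2 gave an adjusted p of 0.021 and the edgeR fit with 6 libraries as units 0.030. The latter takes its spread from within library pairs, not from between the leukemias. In GENCODE M21 14.8% of the exon length of Nfkbib is shared with Ccer2 on the other strand.

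Nfkbia, the IkB alpha gene, moved in opposite directions in the leukemias. It stood at 147 and 182 CPM in pro-B cells, 245 and 206 CPM in leukemia 1, and 99.5 and 96.3 CPM in leukemia 92. Leukemia 1 lay above both controls and leukemia 92 below both, a pattern shared by 2.97% of the 14979 genes tested between the leukemias. The reverse pattern was seen in 0 members and 2.88% of those genes. Over both leukemias the log2 change was -0.04 (SE 0.42, edgeR adjusted p = 0.96), and it was 0.46 for leukemia 1 and -0.75 for leukemia 92 in the fit of 3 groups, which share the pro-B libraries.

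Nfkbie, the IkB epsilon gene, stood at 55.6 and 53.6 CPM in pro-B cells, 29.7 and 33.0 CPM in leukemia 92, and 69.5 and 29.2 CPM in leukemia 1. Leukemia 1 replicate 1 was above the controls and the other 3 leukemia libraries were below them (log2 change -0.46, SE 0.23, edgeR adjusted p = 0.22). Without leukemia 1 replicate 1 the change was -0.83 with an adjusted p of 0.037.

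Nfkbiz, whose nuclear IkB zeta protein acts as a cofactor on a set of inflammatory genes, stood at 99.3 and 122 CPM in pro-B cells, 94.9 and 120 CPM in leukemia 92, and 140 and 177 CPM in leukemia 1. Leukemia 92 overlapped the controls and leukemia 1 lay above them (log2 change 0.26, SE 0.23, edgeR adjusted p = 0.46). Nfkbiz was also the only member whose highest library was leukemia 1 replicate 2.

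Tnfaip3, the A20 gene, was lower in every leukemia library than in both pro-B libraries. It stood at 351 and 435 CPM in pro-B cells, 319 and 222 CPM in leukemia 1, and 101 and 134 CPM in leukemia 92. The leukemia libraries averaged 194 ± 97.7 CPM (SD, n = 4 libraries of 2 leukemias) against 393 ± 59.5 CPM in the controls (SD, n = 2). The log2 change of -1.04 (SE 0.42) did not pass with the leukemia as the unit (edgeR adjusted p = 0.16). DESeq2 on the same sums gave an adjusted p of 0.043. The edgeR fit with 6 libraries as units gave 0.018, but its spread is that within library pairs and leaves out the difference between the leukemias. T and NK cell and dendritic cell transcripts were higher in the same pro-B libraries, as given above.

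Counted by range alone, 5 of the 10 members lay higher in all 4 leukemia libraries than in both controls, 1 lay lower and 4 overlapped. Of all genes tested 23.4% and 27.3% lay higher and lower in that way. Leukemia 1 replicate 1 was the highest of the 6 libraries for 8 of the 10 members and for 23.8% of the 14979 genes. Within leukemia 1, replicate 1 exceeded replicate 2 by 4.54 times for Rel, 3.59 for Relb, 3.02 for Nfkb2, 2.38 for Nfkbie, 1.89 for Nfkb1 and 1.37 for Rela, while Tnfaip3, Nfkbib, Nfkbia and Nfkbiz had ratios of 1.44, 1.20, 1.19 and 0.79.

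Levels were set against each other per kilobase of exon, with lengths from GENCODE M21 on GRCm38, since the labels do not name the annotation behind the counts. In pro-B cells Nfkbia was the most abundant member at 104 ± 15.8 CPM per kb (SD, n = 2), overlapping Tnfaip3 at 85.6 ± 13.0, and Nfkb1 followed at 55.9 ± 2.59. Nfkbiz and Rela (26.8 and 24.5 CPM per kb on average) overlapped, Nfkbie stood at 22.4, Nfkbib overlapped Nfkb2 (8.14 and 7.42), and Relb and Rel, which overlapped at 5.43 and 5.03, were the lowest.

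In leukemia 92 the order differed. Nfkb1 led at 83.1 ± 5.27 CPM per kb (SD, n = 2), above Nfkbia at 62.0 ± 1.43 and Rela at 34.3 ± 0.932. Nfkbiz and Tnfaip3 overlapped at 26.0 and 25.6, Nfkb2, Rel and Relb lay together at 15.7, 14.2 and 14.1, and Nfkbie and Nfkbib were lowest at 12.9 and 12.3. In leukemia 1 Nfkbia led at 143 ± 17.6 CPM per kb (SD, n = 2). Below it Nfkb1 at 68.4 overlapped Tnfaip3 at 58.9. Nfkbiz at 38.3, Rela at 36.5, Relb at 20.4, Nfkbie at 20.3, Rel at 19.1, Nfkb2 at 18.4 and Nfkbib at 13.2 each overlapped the next.

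**Figure D3:**
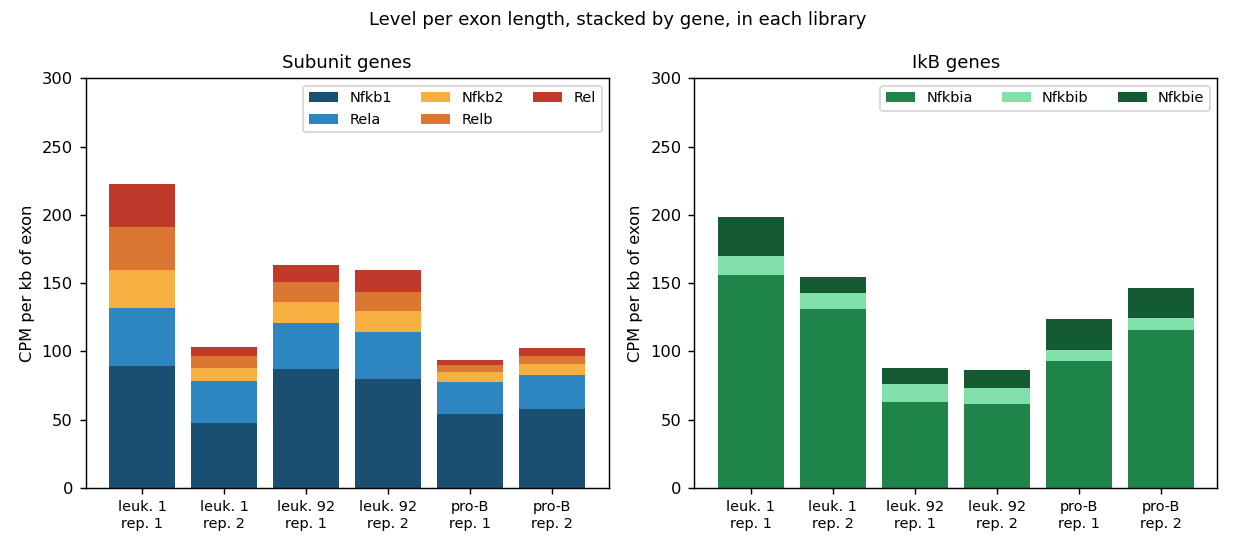
Levels in CPM per kb of exon, stacked by gene for the 5 subunit genes (left) and the 3 cytoplasmic IkB genes (right) in each library. The subunit sum runs from 93.8 in pro-B replicate 1 to 223 in leukemia 1 replicate 1, and both leukemia 92 libraries have the lowest IkB sums, 87.9 and 86.4.

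The make-up of the subunit pool shifted with these changes. The 5 subunit genes summed to 93.8 and 103 CPM per kb in pro-B cells, 164 and 159 in leukemia 92, and 223 and 103 in leukemia 1 replicates 1 and 2. Nfkb1 held 57.6% and 56.2% of that sum in pro-B cells and 40.2% to 53.1% in leukemia. Rel, Relb and Nfkb2 held 4.27% to 5.90%, 5.30% to 5.72% and 7.52% to 7.58% in pro-B cells and 6.68% to 14.0%, 8.59% to 14.3% and 8.89% to 12.5% in leukemia. None of these 3 shares overlapped between leukemia and pro-B libraries, whereas that of Rela did (19.0% to 29.9% in leukemia, 24.6% and 25.3% in pro-B cells).

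The 3 cytoplasmic IkB genes summed to 124 and 146 CPM per kb in pro-B cells, 87.9 and 86.4 in leukemia 92, and 199 and 155 in leukemia 1. Set against the subunit sum this gave ratios of 1.32 and 1.42 in pro-B cells, 0.537 and 0.542 in leukemia 92, and 0.892 and 1.5001 in leukemia 1. Leukemia 92 had the lowest ratios, and leukemia 1 replicate 2 lay slightly above pro-B cells while its replicate 1 lay below. These shares and ratios are values of transcripts with no test, and they say nothing of protein.

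Between the leukemias, Nfkbia was the 1 member called, lower in leukemia 92 than in leukemia 1 (log2 change -1.21, SE 0.17, edgeR adjusted p = 0.043). Here all 6 libraries entered the fit with 1 coefficient per group, and 1.27% of 14979 genes were called lower and 1.82% higher. Tnfaip3 had a change of the same size, -1.20 (SE 0.26, edgeR adjusted p = 0.078), and DESeq2 called it with an adjusted p of 0.000567, in a fit that called 8.98% of all genes lower and 8.83% higher. Nfkbiz had a change of -0.56 (SE 0.21, adjusted p = 0.19). By range, 3 of the 10 members (Nfkbia, Tnfaip3 and Nfkbiz) lay lower in both leukemia 92 libraries than in both leukemia 1 libraries, a share near the 25.8% of all genes, and 0 lay higher (25.4% of all genes).

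The subunit genes gave no call between the leukemias, with log2 changes of 0.28 for Nfkb1, -0.23 for Nfkb2, -0.43 for Rel, -0.09 for Rela and -0.52 for Relb and standard errors of 0.18 to 0.71. Their direction depended on which leukemia 1 library was used. Without leukemia 1 replicate 1 the changes of Nfkb2, Rel and Relb were 0.79, 1.05 and 0.68, and without its replicate 2 they were -0.81, -1.14 and -1.17. Nfkbia kept its direction in all 6 fits with 1 library left out, at -1.32 to -1.07, with adjusted p values of 0.000121 to 0.43. Its call was lost without either leukemia 92 library (0.43 and 0.36) and without either pro-B library (0.20 and 0.20), fits in which edgeR called 0 of all genes, with 1552 to 2303 at an unadjusted p under 0.05.

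The rest of the pathway was read from lists chosen by function, with earlier results of these data known. They are described by counts and medians beside the 9.54% of all genes called higher and 10.7% called lower. A count above those shares is therefore a description, not a test of the list. Among the ligand and receptor genes tested, 8 of 20 rose and 2 fell, while 10 did not pass (median log2 change 0.74). Without leukemia 1 replicate 1 these counts were 6 and 1, and without its replicate 2 they were 8 and 3. Tnf, the prototype NF-kB-activating cytokine, stood at 3.22 and 3.90 CPM in pro-B cells and 133 to 200 CPM in leukemia (log2 change 5.41, SE 0.205, edgeR adjusted p = 0.0065). Lta, the lymphotoxin alpha gene beside it, stood at 0.704 and 0.468 CPM and rose to 190 to 366 CPM (log2 change 8.79, SE 0.48, adjusted p = 0.0079). Cd40, a TNF receptor family member on B cells, rose by 3.09 (adjusted p = 0.012), but the change was 2.30 (adjusted p = 0.12) when leukemia 1 replicate 1 was left out. Il1b (5.31), Tlr2 (2.08) and Tnfrsf1b (1.19), chosen after their values were seen, rose as well. Tlr7, an endosomal RNA sensor, fell by 1.67, and the cytokine gene Il18 had a change of -3.23 (adjusted p = 0.042, against 0.14 without leukemia 1 replicate 1 and 0.074 without leukemia 92 replicate 1). Ltb, the lymphotoxin beta gene, was called higher in leukemia 92 than in leukemia 1 (log2 change 1.81, edgeR adjusted p = 0.024). It stood at 31.4 ± 2.10 CPM in leukemia 92 and 8.93 ± 0.132 CPM in leukemia 1 (SD, n = 2 each). Without replicate 1 or 2 of leukemia 92 the change was 1.89 or 1.765. The call was lost in both fits, which leave a single leukemia 92 library.

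Between receptor and IKK, 4 of 19 adaptor and ubiquitin ligase genes rose and 1 fell (median log2 change 0.31). Traf3, which holds back the non-canonical arm, rose by 1.29 (adjusted p = 0.016), Irak2, a kinase of Toll-like receptor signalling, by 1.81 (0.028) and its partner adaptor Myd88 by 0.76 (0.035). Without leukemia 1 replicate 1 these 3 had adjusted p values of 0.10, 0.13 and 0.058, and the list held 0 genes called higher. Birc2, the ubiquitin ligase cIAP1, fell by 0.81 (adjusted p = 0.023). Of 10 kinase genes 1 rose and 9 did not pass (median 0.36): Tbk1, an IKK-related kinase, by 0.79 (adjusted p = 0.031, and 0.21 without leukemia 1 replicate 1). The IKK genes Chuk, Ikbkb and Ikbkg had log2 changes of 0.27, 0.49 and 0.04 and did not pass (adjusted p = 0.26 to 0.89).

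Other IkB-type genes and brakes of the pathway included 5 of 17 that rose (3 without leukemia 1 replicate 1), 1 that fell (0 without either leukemia 1 library) and 11 that did not pass (median 0.34). Bcl3, a nuclear IkB protein that binds p50 and p52, stood at 2.82 and 3.39 CPM in pro-B cells and 12.4 to 33.2 CPM in leukemia (log2 change 2.71, SE 0.25, edgeR adjusted p = 0.014). Nfkbid, the gene of another nuclear IkB, rose by 1.27 (adjusted p = 0.018, and 0.080 without leukemia 1 replicate 1), and the IkB-like gene Nfkbil1 by 2.398 (0.018). Otud7b, a deubiquitinase that stabilises TRAF3, fell by 0.71 (adjusted p = 0.038), a call lost without either library of leukemia 1 (0.072 and 0.062).

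Among widely used NF-kB target genes, 10 of the 25 with enough counts rose and 15 did not pass, with a median log2 change of 1.23 against 0.02 for all genes. Without leukemia 1 replicate 1 there were 7 that rose, and without its replicate 2 there were 9 that rose and 2 that fell, Vcam1 and Ccl5. Cd83, an activation marker, stood at 1.15 and 2.34 CPM in pro-B cells and 72.2 to 191 CPM in leukemia (log2 change 6.39, SE 0.44, edgeR adjusted p = 0.010). Plau, the urokinase gene, stood at 3.30 and 3.35 CPM in pro-B cells and 143 to 329 CPM in leukemia (log2 change 6.14, SE 0.50, adjusted p = 0.013). Bcl2a1d, a survival gene of the BCL2 family, was called with a change of 7.47 (adjusted p = 0.015), but it is 1 of 3 near-identical Bcl2a1 copies in the list, all called higher, whose reads cannot be assigned with certainty. The adhesion gene Icam1 (2.31) and the survival gene Bcl2l1 (1.63) rose too, both named after their values were known. Without leukemia 1 replicate 1 the call of Bcl2l1 was lost (log2 change 1.39, edgeR adjusted p = 0.11). The 15 that did not pass had log2 changes from -3.86 for the chemokine gene Ccl5 (adjusted p = 0.17) to 1.77 for Ier3 (0.26). Ccl5 and the chemokine receptor gene Ccr7 (-3.47, adjusted p = 0.087) were lower in all 4 leukemia libraries than in both pro-B libraries, which also held more T and NK cell transcripts. The part of those cells was not tested.

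Between the leukemias, 2 of these 25 targets were called lower in leukemia 92 and 1 higher, with a median log2 change of -0.89 against -0.08 for all genes. Gadd45b, a stress response gene, stood at 16.8 and 23.8 CPM in pro-B cells, 81.4 and 64.2 CPM in leukemia 1, and 12.3 and 13.6 CPM in leukemia 92 (log2 change -2.49, SE 0.24, edgeR adjusted p = 0.027). The death receptor gene Fas, the other call, had a change of -1.84 (adjusted p = 0.047). Plau was called higher by 0.996 (adjusted p = 0.043). All 3 calls were lost without either leukemia 92 library, fits in which edgeR called 0 of all genes (1552 and 1704 at an unadjusted p under 0.05). With leukemia 1 replicate 1 left out it called 13 targets lower and 8 higher, among 7975 of 15778 genes called. Leaving out leukemia 1 replicate 2 gave 12 lower and 5 higher, among 8133 of 15488 genes.

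**Figure D4:**
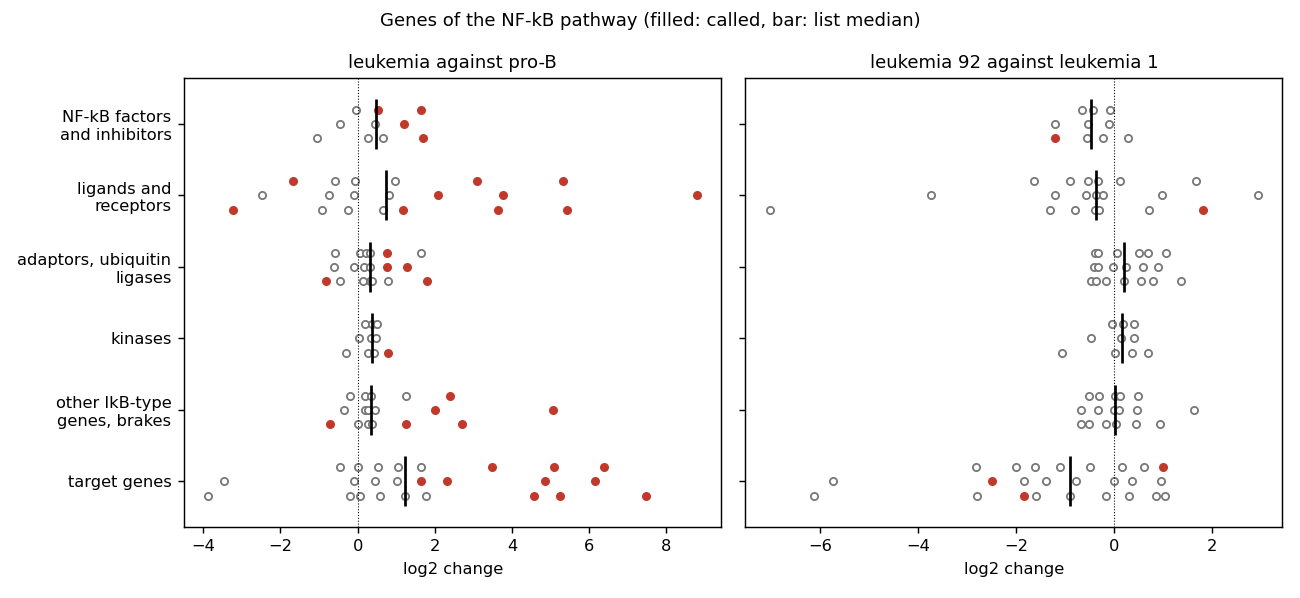
Log2 changes of the genes of the members and of 5 pathway lists for leukemia against pro-B cells (left) and leukemia 92 against leukemia 1 (right), 1 point per tested gene, filled where called, with the list median as a bar. On the left the target list has the highest median (1.23), and on the right it has the lowest (-0.89).

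The genes whose levels followed the 3 most changed members most closely over the 6 libraries were taken by Pearson's r of log2(CPM + 0.5) among 9070 other genes. They were Skil and Mtrr for Rel (r = 0.996 and 0.995), B4galt7 and Dcun1d1 for Relb (0.999 and 0.999) and Samsn1 and Lrrfip1 for Nfkb2 (0.999 and 0.999). These values describe 6 libraries that fall into 3 groups, and 434 to 536 genes had an r above 0.9 with each of the 3 members.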

How the data were processed

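Total RNA of 4 leukemia and 2 wild-type pro-B libraries was sequenced after RNeasy extraction and TruSeq RNA library preparation, per the labels. The authors deposited 1 table of raw counts for each gene in each library. Per the submitters' processing notes, the tools were STAR 2.4, HTSeq 0.6.1 and DESeq2 and the build mm9, without roles or order. Neither the annotation nor a strand setting is stated there. Entries that name no gene (34.0% to 39.6% of a library) were left out.

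Fits ran on the whole table with edgeR 4.0.16 (R 4.3.3), using TMM scaling, the filterByExpr minimum of 10 counts, the robust quasi-likelihood test, Benjamini-Hochberg adjustment over all genes, called under 0.05. The SE comes from the F statistic. Leukemia against pro-B cells used counts summed per leukemia, so the leukemia 1 value pools its 2 unlike libraries. Leukemia 92 against leukemia 1 used 6 libraries. The fits were tested on simulated data with known changes. Alternatives were DESeq2 1.42.0, other scalings and filters, left-out libraries, libraries as units and a replicate block. Floors cover counting error only, and the counts carry no molecular identifiers.

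Members, gene lists and tests were chosen with earlier results of these data known. Outside the members, genes were named by rule: up to 3 called per list and direction by smallest p for leukemia against pro-B cells, and up to 1 between the leukemias. Exceptions are marked in the text, and Fas, Chuk, Ikbkb, Ikbkg, Vcam1, Ccl5, Ccr7 and Ier3 were also chosen after their values were seen.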

Additional observations from a re-analysis of the deposited data

Results flagged for a closer look

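Nfkbia was picked out because the leukemias differed in their change from pro-B cells by a test of the difference itself. The log2 change, leukemia 92 minus leukemia 1, was -1.206 (edgeR adjusted p = 0.043), with both libraries of leukemia 1 above and both of leukemia 92 below the pro-B libraries. With the replicate block the change was -1.207 and the call was lost (edgeR adjusted p = 0.12). Groups of 2 libraries are too small for a test of single outlying libraries.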

How the results depend on the processing

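For leukemia against pro-B cells, 3089 genes were called in all, against 4769 with DESeq2, 4712 with 6 libraries as units, 3373 with a replicate block, 10134 without both libraries of leukemia 1 and 9335 without both of leukemia 92. In the last 2 fits a single leukemia sum is assumed to vary like the pro-B pair. Leaving out 1 library gave 0 to 3244. Members called higher numbered 4, against 1 with 6 libraries as units, 0 with the replicate block (3 at an unadjusted p under 0.05), 7 without both libraries of leukemia 92, and 0 to 4 with 1 library left out. Members called lower numbered 0, against 1 with DESeq2, 1 with 6 libraries as units, 1 with the replicate block (Tnfaip3), 3 without both libraries of leukemia 1, 2 without both of leukemia 92, and 0 to 1 with 1 library left out. Of 150 log2 changes of members under alternatives, 102 kept their direction and side of the threshold, 27 lost and 17 gained a call, and 4 changed sign: Nfkbia was at 0.04 without leukemia 1 replicate 2, 0.11 without pro-B replicate 2 and 0.41 without both libraries of leukemia 92 (lowest -0.20 with 1 library left out), and Nfkbiz at -0.031 without both libraries of leukemia 1.

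For leukemia 92 against leukemia 1, 463 genes were called, against 2667 with DESeq2, 0 with the replicate block (3042 at an unadjusted p under 0.05), and 0 to 8133 with 1 library left out. Members called higher numbered 0 (0 at an unadjusted p under 0.05 and 0 with DESeq2), and 0 to 3 with 1 library left out. Members called lower numbered 1, against 2 with DESeq2, 0 with the replicate block and 0 to 7 with 1 library left out. Fits without 1 leukemia 1 library take their spread from the other pairs, so a lone library is assumed to vary like them. Of 130 log2 changes, 107 kept direction and side, 6 lost and 10 gained a call, and 7 changed sign: without leukemia 1 replicate 1 Nfkb2 was at 0.79, Rel at 1.05, Rela at 0.16, Relb at 0.68, Nfkbib at 0.039, Nfkbie at 0.11 and Nfkb1 at 0.82. Without its replicate 2 they were at -0.81, -1.14, -0.30, -1.17, -0.23, -1.15 and -0.11, in the same order. Nfkb1 changed sign in the second of these fits and the other 6 in the first. The cause was not tested. The replicate numbers do not pair the libraries by any label, and the replicate deviations of the groups correlated at -0.161, 0.0612 and -0.0336 over genes. Since the first of these, between the leukemias, was negative, a crossed pairing was added after seeing the data, and it called 0 genes and 0 members lower (3074 genes and 2 members at an unadjusted p under 0.05).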
